A study of Canis lupus familiaris with 12 samples.

Results

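The genes described here are those of the splicing machinery and its main RNA-binding partners: the heterogeneous nuclear ribonucleoproteins (hnRNPs), the SR proteins, and the proteins of the spliceosome whose symbols begin with SF3A, SF3B, SNRP or PRPF or are LSM1 to LSM8. They were chosen by symbol alone, from the annotation of the array's probe sets, and 66 of the 15115 genes named there were members: 17 hnRNP genes, 11 SR protein genes, 9 SF3A and SF3B genes, 9 SNRP genes, 12 PRPF genes and 8 LSM genes. C2, the cell line of all groups, comes from a canine mast cell tumour and carries a tandem duplication in the juxtamembrane part of KIT. In untreated C2 cells this receptor tyrosine kinase therefore signals without its ligand. Messenger RNA was measured on Affymetrix Canine Genome 2.0 arrays in flasks of untreated C2 cells (0 h) and in flasks kept with 100 nM masitinib, an inhibitor of KIT and related tyrosine kinases, for 12, 24 and 72 h. Each time point had 3 arrays, 12 in all. The flasks are cultures of 1 cell line, and what the p-values compare with is therefore only the spread among such flasks, which may be technical; the number of arrays limits the precision. Untreated cultures at 12, 24 and 72 h were not analysed here, and the effect of masitinib and of time in culture cannot be told apart.

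The spliceosome removes introns from pre-mRNA and is built anew on every intron from small nuclear ribonucleoproteins (snRNPs), each a small nuclear RNA with a ring of Sm or LSm proteins and proteins of its own. SR proteins bind exons and in general recruit the spliceosome to nearby splice sites, whereas many hnRNPs bind the same transcripts and often keep splice sites from being used. The balance of both groups decides which exons are kept, and dividing cells are known to need a large supply of these proteins.

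Expression values are on the log2 scale, and each gene was read from its brightest probe set, that with the highest mean over the 12 arrays. A gene is said to have fallen or risen where limma gave an adjusted p under 0.001 (Benjamini-Hochberg, over all 42924 probe sets tested) and a change of more than 1.5-fold. Array medians lay between 5.89 and 5.95, and the mean of every one of the 66 genes at 0 h was above them. Pearson's r across probe sets, which are not independent, was 0.995 to 0.998 between arrays of 1 time point. Of 11 mast cell markers 9 were measured, all above the array medians at 0 h, 3 rose at 72 h and none fell, and the log2 of their summed level was 16.1 to 16.2 at 0 h and 16.8 to 16.9 at 72 h. None of 4 fibroblast and 3 B cell markers was above the array medians at 0 h, against 2 of 4 macrophage, 3 of 5 T cell and 2 of 4 epithelial markers, among them EPCAM with 8.72 at 0 h. EPCAM and KRT18 rose at 12 h (0.81 and 0.78) and fell at 72 h (-1.54 and -1.15), CD3D fell (-1.11) and CDH1 (0.63) and CD79A (0.64) rose at 72 h, and the other markers of these types did not pass against 0 h. The log2 of the summed level of the epithelial markers was 9.13 to 9.22 at 0 h and 7.85 to 7.95 at 72 h, and that of the T cell markers 8.36 to 8.53 and 8.28 to 8.34. The part of these markers' cell types in the results was not tested. Since RNA was taken from whole cultures, fewer cells with a transcript and less of it per cell cannot be told apart.

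After 12 h 9 of the 66 genes had fallen and 0 had risen, after 24 h 22 had fallen and 2 had risen, and after 72 h 25 had fallen and 2 had risen. Over all 15115 genes 6.30% fell and 4.26% rose at 12 h, 10.0% fell and 8.01% rose at 24 h, and 11.0% fell and 8.73% rose at 72 h. Since all splicing genes lay above the array medians at 0 h, the shares were also taken without the dimmest 40% of probe sets. Of the 10709 genes left, 8.65%, 13.6% and 14.9% fell at 12, 24 and 72 h. The median log2 change of the 66 genes was -0.22, -0.39 and -0.39 at the 3 times, beside 0.011, 0.033 and 0.023 over all genes. All 3 treated arrays lay below all 3 untreated arrays for 44 of the 66 genes at 12 h, 51 at 24 h and 51 at 72 h, a pattern that 22.9%, 24.8% and 26.4% of all genes had. The reverse pattern was seen for 10, 12 and 6 of them, against 22.1%, 28.2% and 26.3% of all genes. For the count of 0 rises at 12 h, limma gave 7 higher and 42 lower genes at an unadjusted p under 0.05, and the analysis of variance of the study's methods called 0 rises as well.

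In all, 29 of the 66 genes fell at 1 or more times, 2 rose and 35 passed at no time. The shares of all genes that passed at 1 or more times or at all 3 were not taken. Of the 29, 8 fell at all 3 times, 14 first fell at 24 h and 6 fell at 72 h only, while SRSF6 fell at 12 h only. These times are those of the brightest probe sets. Another probe set had already fallen at 12 h for 4 of the 14 (SRSF2, SNRPB, LSM3 and LSM7) and at 12 or 24 h for 3 of the 6 (SF3B3, SNRPD1 and LSM8), and a second one of SRSF6 fell at 12 and 24 h (-0.98 and -0.85). The median log2 change of the genes that fell was -0.79, -0.96 and -0.93 at 12, 24 and 72 h. Counts and times are given below family by family, and no test between families was made.

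**Figure D1:**
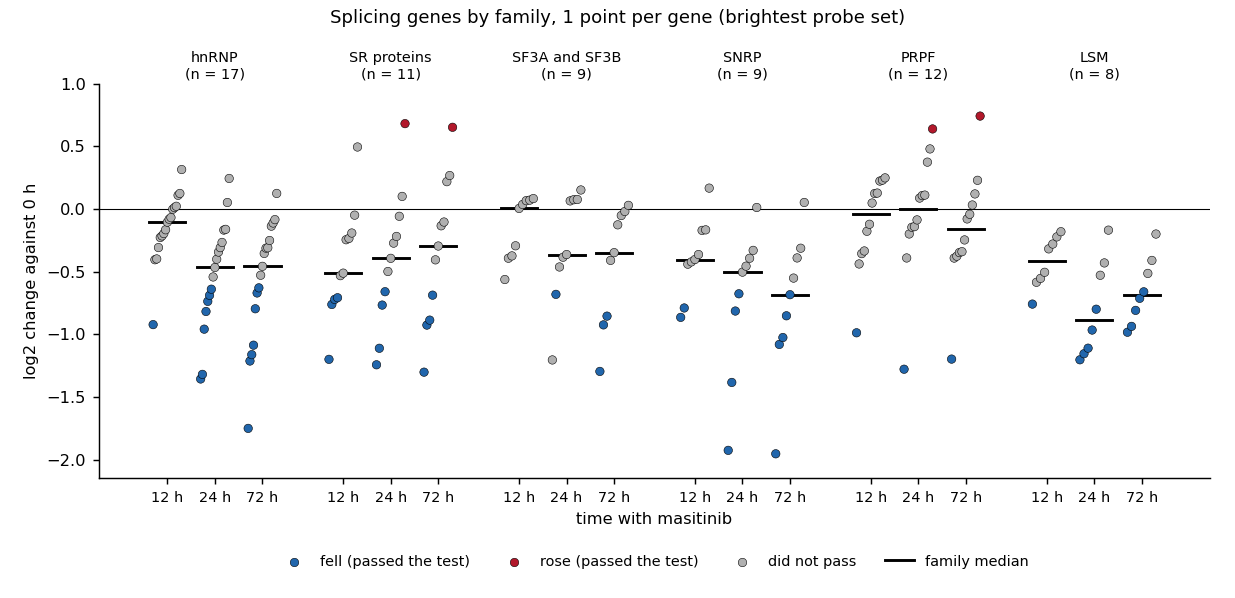
Log2 change of each splicing gene against 0 h (vertical axis) after 12, 24 and 72 h with masitinib, by family; 1 point is 1 gene, read from its brightest probe set and fitted over 3 arrays a time point, blue and red mark genes that fell or rose past the test, and black lines are family medians. Most points lie below 0 and only SRSF5 and PRPF40B are red, while the lowest points are SNRPA1 at 24 and 72 h (-1.93 and -1.95).

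**Figure D2:**
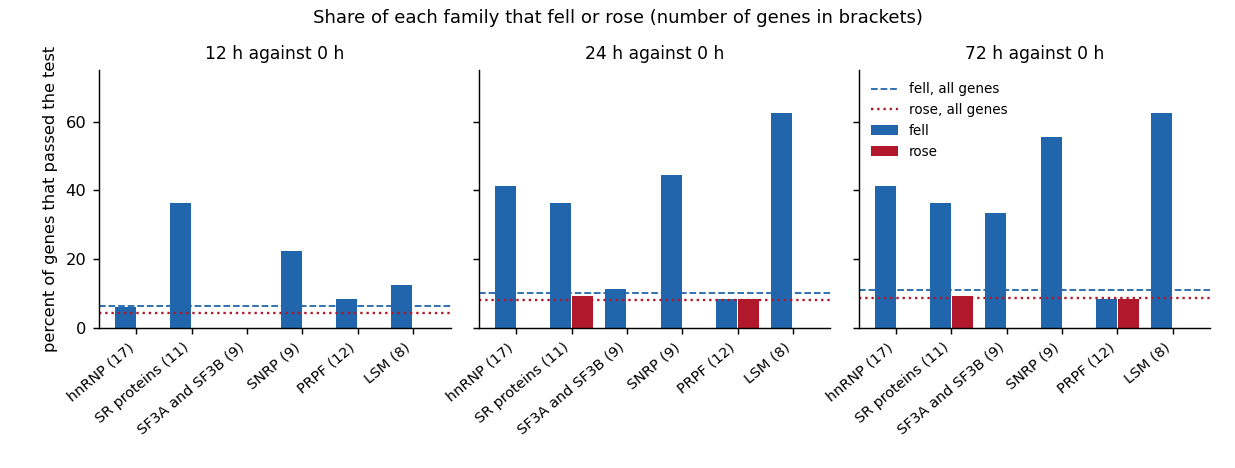
Percent of the genes of each family that fell (blue bars) or rose (red bars) at each time against 0 h, with the number of genes of a family in brackets; the dashed and dotted lines are the percent of all 15115 genes that fell (6.30, 10.0 and 11.0) or rose. At 24 and 72 h the blue bars stand well above the dashed line, except those of PRPF and, at 24 h, of SF3A and SF3B. For SF3A and SF3B at 24 h 1 of 9 genes fell (11.1%), near the line, and 1 of 12 PRPF genes fell at every time.

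Of the 11 SR protein genes 4 had fallen at 12 h (SRSF1, SRSF3, SRSF6 and SRSF7), 4 at 24 h and 4 at 72 h, with family medians of -0.51, -0.39 and -0.30. The share fallen was 36.4% at each time, against 6.30%, 10.0% and 11.0% of all genes. For 6 of the 11 the lowest of the 3 treated means was that at 12 h, which held for 5 of 12 PRPF and 1 of 8 LSM genes and for none of the 17 hnRNP, 9 SF3A and SF3B and 9 SNRP genes. These counts also take genes that did not pass or that rose. Of the 6, SRSF6 and SRSF7 had fallen at 12 h. SRSF5 lay above its 0 h mean at every time, and SRSF4, SRSF10 and SRSF11 passed at no time. The PRPF genes counted include PRPF40B, which rose later. The share over all genes was not taken. SRSF7, which binds exonic enhancers and also helps to carry mRNA out of the nucleus, read 12.85, 12.82 and 12.85 at 0 h, 11.64, 11.65 and 11.62 at 12 h, 11.75, 11.69 and 11.75 at 24 h, and 11.88, 11.92 and 11.93 at 72 h. Every treated array lay below the untreated ones, and the 12 h arrays were the lowest. The log2 changes were -1.20, -1.11 and -0.93 (SE 0.0514 each), with adjusted p = 6.47e-09, 2.67e-09 and 1.16e-08 from limma.

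SRSF3, the smallest of the classical SR proteins and also an export adaptor, read 12.44, 12.51 and 12.48 at 0 h, 11.71, 11.70 and 11.73 at 12 h, 11.20, 11.22 and 11.28 at 24 h, and 11.13, 11.25 and 11.15 at 72 h. Its arrays separated into 3 levels, untreated, 12 h and later, and the 24 and 72 h arrays overlapped. Its log2 changes were -0.76, -1.24 and -1.30 (SE 0.0570), with adjusted p = 5.10e-07, 2.46e-09 and 1.32e-09 from limma. SRSF1, the founding SR protein, stepped down by 12 h and stayed there, with log2 changes of -0.71, -0.77 and -0.69, and the change from 24 to 72 h did not pass (0.079, SE 0.0543).

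SRSF6 and SRSF2 were closer to the untreated level at 72 h than at their lowest time. SRSF6 read 11.05, 11.09 and 11.04 at 0 h, 10.30, 10.36 and 10.36 at 12 h, 10.72, 10.63 and 10.65 at 24 h, and 10.74, 10.82 and 10.74 at 72 h, so its 12 h arrays were the lowest and its 72 h arrays still lay below the untreated ones. Its log2 change was -0.72 at 12 h (adjusted p = 6.05e-07 from limma), and the later values of -0.39 and -0.30 were under 1.5-fold. SRSF2, which binds exonic enhancers and remains in the nucleus, read 12.70, 12.72 and 12.72 at 0 h, 12.11, 12.23 and 12.20 at 12 h, 12.07, 12.03 and 12.05 at 24 h, and 12.56, 12.63 and 12.63 at 72 h. The 24 h arrays of SRSF2 were the lowest, and those at 72 h lay below the untreated arrays by less than the 12 h arrays did. Its change was -0.53 at 12 h, under 1.5-fold, -0.66 at 24 h (adjusted p = 5.92e-07 from limma) and -0.10 at 72 h (adjusted p = 0.165), and the 72 h arrays were higher than the 24 h arrays by 0.56 (adjusted p = 1.79e-05, under 1.5-fold).

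SRSF12, an atypical SR protein, fell at 72 h only (-0.89, SE 0.0758, adjusted p = 6.40e-07 from limma). SRSF5, an SR protein known from growth-responsive liver cells, moved the other way. Its arrays read 10.98, 10.97 and 10.99 at 0 h, 11.39, 11.47 and 11.56 at 12 h, 11.68, 11.60 and 11.70 at 24 h, and 11.76, 11.58 and 11.56 at 72 h. All treated arrays of SRSF5 were above the untreated ones, and the log2 changes were 0.495, which was under 1.5-fold, 0.68 and 0.65 (SE 0.0697, adjusted p = 0.000120, 4.01e-06 and 5.25e-06 from limma). The other 4 SR protein genes (SRSF4, SRSF9, SRSF10 and SRSF11) passed at no time, and their changes lay between -0.51 and 0.27.

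**Figure D3:**
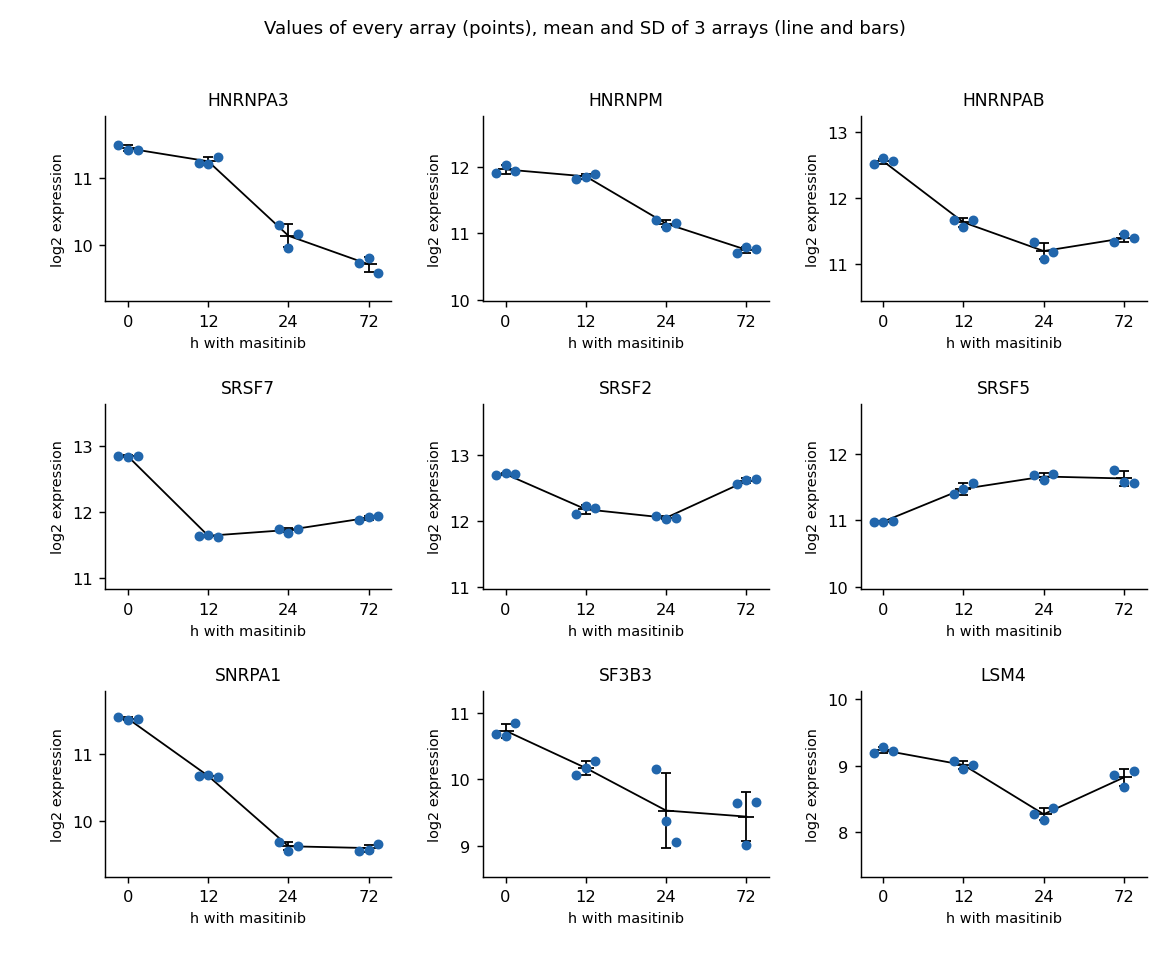
Log2 expression (vertical axis, 2.8 log2 units in every panel) of 9 splicing genes at 0, 12, 24 and 72 h with masitinib, with the times evenly spaced; points are arrays, and the line and bars are the mean and SD of 3 arrays. SRSF7 is lowest at 12 h, HNRNPA3 and HNRNPM fall between 12 and 24 h, SRSF2 and LSM4 are higher at 72 h than at 24 h, SRSF5 lies above its 0 h arrays throughout, and the 24 h arrays of SF3B3 are spread from 9.06 to 10.15.

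Of the 17 hnRNP genes 1 had fallen at 12 h (HNRNPAB), 7 at 24 h and 7 at 72 h. These were 5.88%, 41.2% and 41.2%, against 6.30%, 10.0% and 11.0% of all genes, so the 12 h share lay near that of all genes. The family median went from -0.11 at 12 h to -0.47 and -0.46. HNRNPA3, a nuclear protein of the A/B group that also binds RNAs in transport, read 11.51, 11.42 and 11.43 at 0 h, 11.23, 11.22 and 11.33 at 12 h, 10.30, 9.95 and 10.15 at 24 h, and 9.73, 9.80 and 9.58 at 72 h. The 12 h arrays lay slightly below the untreated ones, and the 24 and 72 h arrays lay far below both without overlap. Its log2 changes were -0.20, -1.32 and -1.75 (SE 0.0889; adjusted p = 0.134, 7.87e-08 and 5.08e-09 from limma), the largest fall of the family on brightest probe sets. Of its 3 probe sets 2 fell at 24 and 72 h and the other did not pass, and their changes at 72 h spanned 1.77.

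HNRNPM, a splicing repressor and activator that binds GU-rich RNA, had the same course. It read 11.92, 12.04 and 11.94 at 0 h, 11.82, 11.86 and 11.91 at 12 h, 11.20, 11.10 and 11.15 at 24 h, and 10.71, 10.80 and 10.76 at 72 h. The 12 h arrays lay just under the untreated ones, the 24 h arrays came lower and the 72 h arrays lower again. The log2 changes of HNRNPM were -0.11, -0.82 and -1.21 (SE 0.0593; adjusted p = 0.238, 1.56e-07 and 3.55e-09 from limma). HNRNPA2B1, one of the most abundant core hnRNPs, read 13.04, 13.11 and 13.03 at 0 h, 13.03, 12.99 and 13.16 at 12 h, 12.31, 12.32 and 12.35 at 24 h, and 12.01, 11.96 and 11.96 at 72 h. Its 12 h arrays overlapped the untreated ones and its later arrays did not, and it fell at 24 h (-0.74) and at 72 h (-1.09; SE 0.0605, adjusted p = 4.99e-07 and 1.18e-08 from limma).

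HNRNPAB, known for binding single-stranded nucleic acids, was the hnRNP that had already fallen at 12 h. It read 12.52, 12.60 and 12.56 at 0 h, 11.67, 11.56 and 11.67 at 12 h, 11.33, 11.08 and 11.19 at 24 h, and 11.33, 11.45 and 11.40 at 72 h. No treated array reached the untreated ones, and the log2 changes were -0.92, -1.36 and -1.16 (SE 0.0716; adjusted p = 7.05e-07, 8.39e-09 and 3.06e-08 from limma). HNRNPDL, a relative of HNRNPD, fell at 24 and 72 h (-0.96 and -0.80), as did HNRNPR (-0.69 and -0.67), which binds mRNA and is known from axons. HNRNPD, also called AUF1 and a regulator of mRNA decay, fell at 24 h (-0.64) and stood at -0.53 at 72 h, under 1.5-fold, while HNRNPUL2 fell at 72 h only (-0.63). HNRNPH2 had the smallest change of the family at 72 h (-0.085, SE 0.0677, adjusted p = 0.370 from limma). The 9 hnRNP genes that passed at no time, the abundant HNRNPC, HNRNPF, HNRNPL and HNRNPU among them, had changes between -0.54 and 0.32.

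Among the SNRP genes, which encode Sm ring proteins and proteins particular to the U1 and U2 snRNPs, 2 of 9 had fallen at 12 h, 4 at 24 h and 5 at 72 h. These were 22.2%, 44.4% and 55.6%, against 6.30%, 10.0% and 11.0% of all genes, and the family medians were -0.40, -0.50 and -0.68. SNRPA1, the A′ protein of the U2 snRNP, had the largest fall of all 66 genes. It read 11.57, 11.51 and 11.54 at 0 h, 10.67, 10.69 and 10.66 at 12 h, 9.67, 9.55 and 9.62 at 24 h, and 9.55, 9.56 and 9.65 at 72 h. The arrays formed 3 levels without overlap, with 24 and 72 h sharing the lowest. The log2 changes of SNRPA1 were -0.86, -1.93 and -1.95 (SE 0.0569; adjusted p = 1.66e-07, 6.80e-11 and 4.26e-11 from limma).

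SNRPF, the Sm protein F, read 12.38, 12.35 and 12.38 at 0 h, 11.67, 11.51 and 11.55 at 12 h, 11.02, 10.99 and 10.94 at 24 h, and 11.24, 11.32 and 11.31 at 72 h. It was lowest at 24 h and every treated array lay below the untreated ones, with log2 changes of -0.79, -1.38 and -1.08 (SE 0.0595; adjusted p = 5.49e-07, 1.39e-09 and 1.08e-08 from limma). SNRPA, the A protein of the U1 snRNP, fell at 24 and 72 h (-0.68 and -1.03), SNRPB, which encodes the Sm proteins B and B′, fell at the same times (-0.81 and -0.85), and the Sm protein gene SNRPD1 fell at 72 h only (-0.68). SNRPN, which encodes a relative of the Sm protein B and is known as an imprinted gene of neurons, had log2 changes of 0.17, 0.012 and 0.052, and its arrays at 24 and 72 h overlapped the untreated ones. Whether probes share signal between such near relatives was not tested. The 4 SNRP genes that passed at no time (SNRPB2, SNRPC, SNRPE and SNRPN) had changes between -0.55 and 0.17.

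LSM genes encode the proteins of LSm rings, of which LSM2 to LSM8 form the nuclear ring on U6 RNA and LSM1 replaces LSM8 in a cytoplasmic ring that takes part in mRNA decay. Of the 8 genes 1, 5 and 5 had fallen at 12, 24 and 72 h. The shares were 12.5%, 62.5% and 62.5%, against 6.30%, 10.0% and 11.0% of all genes. The medians were -0.41, -0.88 and -0.69, and all 8 stood below 0 at every time. LSM5 read 11.13, 11.18 and 11.18 at 0 h, 10.67, 10.51 and 10.56 at 12 h, 9.99, 9.87 and 10.02 at 24 h, and 10.18, 10.08 and 10.27 at 72 h. Its 24 h arrays were the lowest and no times overlapped, with log2 changes of -0.58 at 12 h, just under 1.5-fold, -1.20 and -0.98 (SE 0.0697; adjusted p = 2.90e-05, 1.97e-08 and 1.11e-07 from limma). LSM2 fell at all 3 times (-0.76, -1.15 and -0.81), and LSM3 (-1.11 and -0.94) and LSM7 (-0.80 and -0.66) fell at 24 and 72 h.

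LSM4 read 9.19, 9.28 and 9.23 at 0 h, 9.07, 8.94 and 9.02 at 12 h, 8.26, 8.17 and 8.36 at 24 h, and 8.86, 8.68 and 8.92 at 72 h. Its 24 h arrays lay below those of every other time, and its 72 h arrays lay between them and the 12 h arrays. It fell at 24 h (-0.97, SE 0.0752, adjusted p = 3.04e-07 from limma) and stood at -0.22 at 12 h and -0.41 at 72 h, neither past the test. LSM8, the subunit particular to the nuclear ring, fell at 72 h only (-0.71), although its dimmest probe set, with a mean of 6.04, fell at all 3 times (-0.81, -1.27 and -1.30). LSM1, the cytoplasmic counterpart of LSM8, had changes of -0.28, -0.17 and -0.20 that did not pass.

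The SF3A and SF3B genes encode the part of the U2 snRNP that holds the branch point. None of the 9 had fallen at 12 h, against 6.30% of all genes. There limma gave 4 lower and 0 higher genes at an unadjusted p under 0.05, and the methods' analysis of variance called 0. At 24 h 1 had fallen (11.1%, near the 10.0% of all genes) and at 72 h 3 had (33.3%, against 11.0%). Counting genes that did not pass, 8 of the 9 were lowest at 72 h. SF3B2 read 10.83, 10.93 and 10.81 at 0 h, 10.91, 10.75 and 10.93 at 12 h, 10.51, 10.47 and 10.44 at 24 h, and 9.97, 10.02 and 10.02 at 72 h. It overlapped the untreated arrays at 12 h and then went down at each time, to -0.38 at 24 h, under 1.5-fold, and -0.85 at 72 h (SE 0.0644; adjusted p = 1.97e-07 from limma). SF3B4 fell at 24 and 72 h (-0.68 and -0.92). It has only 1 probe set, which is dim, with a mean of 6.13 at 0 h. Its means of 5.45 at 24 h and 5.20 at 72 h lay below the array medians.

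SF3B3 was the least reproducible of the 66 genes, with an SD of 0.564 among the 24 h arrays. It read 10.69, 10.65 and 10.86 at 0 h, 10.07, 10.17 and 10.27 at 12 h, 10.15, 9.38 and 9.06 at 24 h, and 9.65, 9.01 and 9.66 at 72 h. All treated arrays lay below the untreated ones, but the 24 h arrays reached from the 12 h level down to near the lowest 72 h array. The log2 changes of SF3B3 were -0.56, -1.20 and -1.30 (SE 0.234), of which limma passed only that at 72 h (adjusted p = 0.0994, 0.00102 and 0.000534). Its second probe set, with a mean of 6.25, fell at all 3 times (-0.97, -1.39 and -1.17; adjusted p = 0.000513, 1.53e-05 and 6.47e-05 from limma). For the brightest one the 72 h call was lost in the methods' analysis of variance, and without any 1 of 7 arrays (0 h replicates 1, 2 and 3, 12 h replicates 1 and 2, 72 h replicates 1 and 2). SF3B6, which contacts the branch point adenosine, had the smallest change at 72 h (-0.020, SE 0.0557), and the 6 SF3A and SF3B genes that passed at no time lay between -0.46 and 0.15.

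PRPF genes, which encode factors of the U4/U6.U5 tri-snRNP and of spliceosome activation, held 1 of 12 genes that fell, at every time, and 1 that rose, at 24 and 72 h. At these later times both shares lay near those of all genes, 10.0% and 11.0% fallen and 8.01% and 8.73% risen. PRPF4, a protein of the U4/U6 snRNP, read 9.57, 9.60 and 9.61 at 0 h, 8.63, 8.50 and 8.69 at 12 h, 8.50, 8.18 and 8.27 at 24 h, and 8.45, 8.35 and 8.39 at 72 h. The treated arrays lay far below the untreated ones at every time, with log2 changes of -0.99, -1.28 and -1.20 (SE 0.0815; adjusted p = 1.19e-06, 4.67e-08 and 7.57e-08 from limma). PRPF40B, a U1-associated protein with WW domains, read 6.76, 6.50 and 6.61 at 0 h, 6.89, 6.73 and 6.95 at 12 h, 7.34, 7.19 and 7.26 at 24 h, and 7.43, 7.28 and 7.39 at 72 h. Its 12 h arrays overlapped the untreated ones and its later arrays lay above them. It rose by 0.64 at 24 h and 0.74 at 72 h on the log2 scale (SE 0.0829; adjusted p = 3.50e-05 and 7.96e-06 from limma), and without 0 h replicate 2 the 24 h value was 0.58 and under 1.5-fold. A second probe set of PRPF40B, with a mean of 5.59, stood at 0.46 and 0.37 at these times and did not pass. Over the mean of all probe sets of a gene neither PRPF40B (0.55 at both times) nor SRSF5 (0.20 and 0.032) passed. The other 10 PRPF genes, with the core proteins PRPF8 and PRPF6 among them and PRPF38B the least changed at 72 h (0.032), lay between -0.44 and 0.48 at all times.

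The step from 12 to 24 h was tested directly. Between these times 9 of the 66 genes fell and 0 rose, against 3.10% and 1.41% of all genes. Only SNRPA1 and SNRPF of these had passed at 12 h against 0 h. At an unadjusted p under 0.05 limma gave 36 lower and 10 higher, and the methods' analysis of variance called 8 falls and 0 rises. The 9 were 4 of the 17 hnRNP genes (HNRNPA3 with -1.12, HNRNPA2B1 with -0.74, HNRNPM with -0.71 and HNRNPDL with -0.65), 3 of the 8 LSM genes (LSM4 with -0.74, LSM5 with -0.62 and LSM3 with -0.61) and 2 of the 9 SNRP genes (SNRPA1 with -1.06 and SNRPF with -0.59). With only probe sets whose names mark no shared or cross-hybridising probes 3 of the 9 passed (HNRNPA3, SNRPA1 and LSM4), HNRNPM, LSM3 and LSM5 have none, and HNRNPA2B1, HNRNPDL and SNRPF stood at 0.23, 0.097 and 0.096. No SR protein, SF3A, SF3B or PRPF gene passed; at an unadjusted p under 0.05 limma gave 3 lower and 5 higher SR protein genes, 3 lower and 0 higher SF3A and SF3B genes, and 2 lower and 5 higher PRPF genes, and the methods' analysis of variance called 0 in each. The median change over this step was -0.32 for the hnRNP genes and 0.088 for the SR protein genes, beside 0.028 over all genes.

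From 24 to 72 h 0 of the 66 genes passed in either direction, against 1.81% of all genes that fell and 1.96% that rose. At an unadjusted p under 0.05 limma gave 21 lower and 15 higher splicing genes, and the methods' analysis of variance called 0. The changes lay between -0.49 and 0.56, so the upper ones approached the 1.5-fold threshold. They were those of SRSF2 and LSM4, both 0.56, with adjusted p = 1.79e-05 and 0.000201 from limma.

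Probe sets of the same gene did not always give the same result. The 66 genes had 162 probe sets in all, and 54 of the genes had more than 1. Among these 54 the calls of a gene's probe sets were the same at all 3 times for 29 genes and differed for 25. For 6 genes (HNRNPH1, HNRNPH3, HNRNPU, SRSF10, PRPF19 and PRPF4B) the brightest probe set never passed but another one did. These other calls were falls, except in PRPF4B, where 1 probe set rose at 72 h. In HNRNPH3 the brightest probe set changed by 0.12 at 72 h and 2 dimmer ones fell (-1.32 and -1.05). The brightest probe set of HNRNPA2B1 (-1.09) and the next one (-1.43) fell at 72 h, whereas the third stood at 0.21 (adjusted p = 0.0138 from limma). HNRNPDL fell at 72 h on its brightest probe set (-0.80) and stood at 0.37 and 0.33 on the next ones, whose adjusted p were 0.00129 and 0.00406 from limma.

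SRSF5 was the gene with opposite calls: its brightest probe set rose, the next showed 0.53 at 72 h, just under 1.5-fold, and the dimmest, with a mean of 4.40 below the array medians, fell (-1.20). SNRPF's brightest probe set has a name marked as shared between transcripts, and an unmarked one with a mean of 4.25, below the array medians, changed by 0.057, 0.15 and 0.069. Of the 3 probe sets of SNRPF 1 fell at 12 h, 2 fell at 24 h and 1 fell at 72 h. In LSM7 both brighter probe sets fell at 72 h (-0.66 and -0.85) and both dimmer ones stood at 0.015 and 0.15. HNRNPM and HNRNPR fell on all 3 of their probe sets at 24 and 72 h, with changes at 72 h of -1.21, -1.69 and -2.08 for HNRNPM and -0.67, -1.03 and -1.36 for HNRNPR. Whether such differences reflect transcript forms of 1 gene or probes that bind other RNA was not tested.

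**Figure D4:**
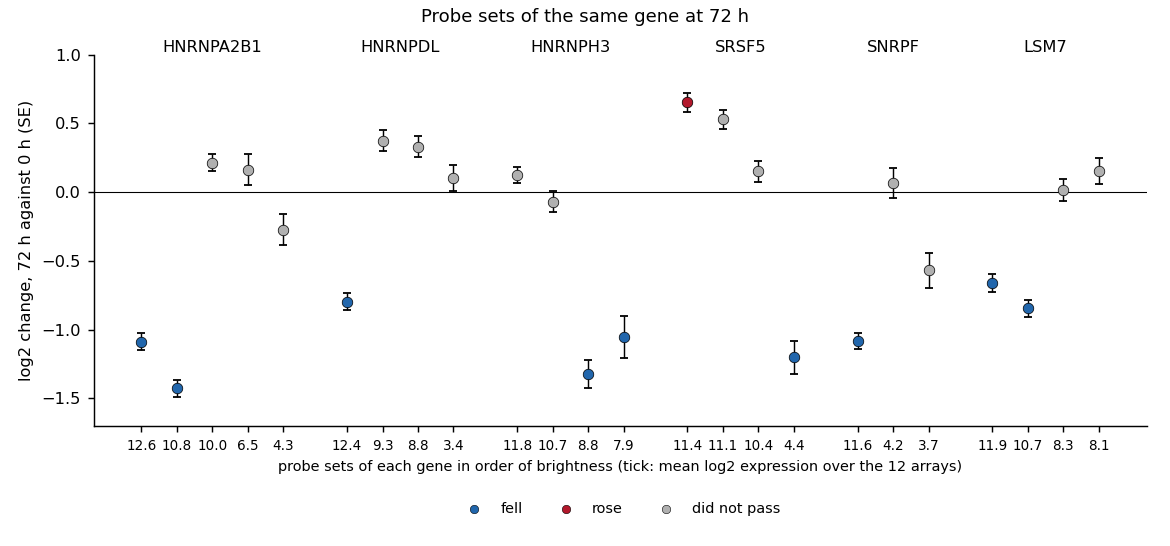
Log2 change at 72 h against 0 h with its SE (vertical axis) of each probe set of 6 splicing genes, in order of brightness from left to right, with the mean log2 expression over the 12 arrays under each point; blue and red mark probe sets that fell or rose past the test. Within HNRNPA2B1, HNRNPDL, HNRNPH3, SRSF5, SNRPF and LSM7 the probe sets that fell lie between -0.66 and -1.43. Each of these genes also has a probe set above 0, but not every probe set that did not pass lies there.

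Scaling mattered for the size of the counts. The 36 probe sets of the poly-A controls, RNAs that are added to each sample before labelling, read higher in treated samples by 0.29, 0.60 and 0.47 at 12, 24 and 72 h, and shifting the arrays to equal controls lowers every gene by these amounts. With that scaling 29, 52 and 49 splicing genes fell and 0 rose, while of all genes 14.3%, 46.8% and 30.7% fell and 1.84%, 2.08% and 3.58% rose, and SRSF5 and PRPF40B no longer passed; relative to the shift all values are those given above. Whether total RNA per cell changed was not tested.

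Of the other genes of the splicing pathway, 121 measured genes in 9 lists, 39 fell at 1 or more times and 6 rose. At 12, 24 and 72 h 14.0%, 25.6% and 23.1% of the 121 fell, against 6.30%, 10.0% and 11.0% of all genes. The shares that rose were 2.48%, 4.96% and 3.31%, against 4.26%, 8.01% and 8.73%. The share of all genes at 1 or more times was not taken. The genes that build snRNPs, the SMN complex and the methylosome, fell most often, 7, 7 and 6 of 12 at the 3 times, with medians of -0.67, -0.73 and -0.54. PRMT5, the enzyme that methylates Sm proteins before they are loaded on small nuclear RNA, read 11.22, 11.23 and 11.26 at 0 h, 9.85, 9.98 and 9.97 at 12 h, 9.83, 9.52 and 9.62 at 24 h, and 9.95, 9.97 and 9.96 at 72 h. Its treated arrays lay at about the same level at 12 and 72 h, far below the untreated ones, with log2 changes of -1.30, -1.58 and -1.28 (adjusted p = 6.31e-08, 3.82e-09 and 2.26e-08 from limma). WDR77, the partner of PRMT5 in the methylosome, changed by -1.42, -1.53 and -0.74 and was named after its values were seen. SNUPN, which carries assembled snRNPs back to the nucleus, fell at all times (-0.76, -0.94 and -1.10), as did CLNS1A, which holds Sm proteins ready for assembly (-0.66, -0.82 and -0.77).

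Of the 7 kinases that phosphorylate SR proteins 2 rose at every time (28.6%, against 4.26%, 8.01% and 8.73% of all genes) and 0 fell. At an unadjusted p under 0.05 limma gave 1 lower kinase at 12 and 24 h and 2 at 72 h. The methods' analysis of variance called 0 falls. CLK1 read 9.36, 9.42 and 9.42 at 0 h, 10.53, 10.52 and 10.56 at 12 h, 10.93, 10.94 and 11.00 at 24 h, and 11.27, 11.12 and 11.32 at 72 h. CLK4 read 8.86, 8.77 and 8.69 at 0 h, 9.35, 9.49 and 9.38 at 12 h, 9.73, 9.81 and 9.93 at 24 h, and 10.16, 10.08 and 10.04 at 72 h. Both went up at each time with no overlap between times. The log2 changes were 1.13, 1.55 and 1.84 for CLK1 (adjusted p = 3.84e-08, 7.62e-10 and 1.37e-10 from limma) and 0.64, 1.05 and 1.32 for CLK4 (adjusted p = 1.81e-05, 9.00e-08 and 9.47e-09 from limma). Less the shift of the poly-A controls these values were 0.84, 0.95 and 1.37 for CLK1 and 0.34, 0.45 and 0.85 for CLK4.

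**Figure D5:**
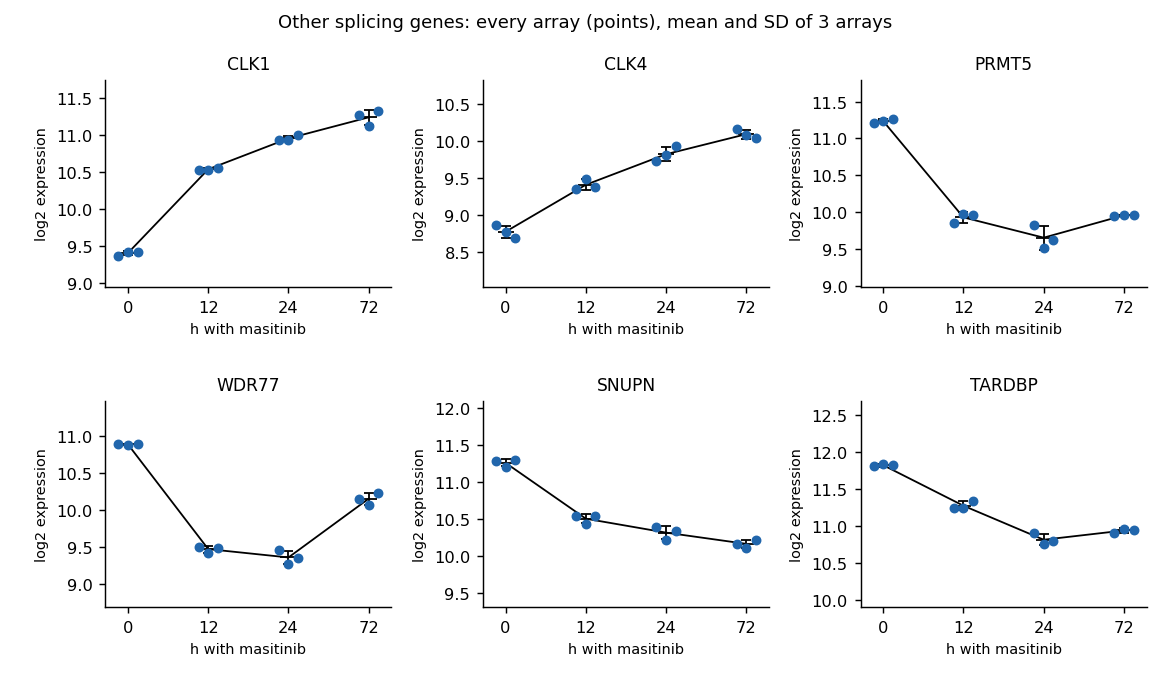
Log2 expression (vertical axis, 2.8 log2 units in every panel) of 6 other splicing genes at 0, 12, 24 and 72 h with masitinib, with the times evenly spaced; points are arrays, and the line and bars are the mean and SD of 3 arrays. The kinases CLK1 and CLK4 rise at each time, PRMT5, WDR77 and SNUPN are low from 12 h on, and WDR77 is higher at 72 h than at 24 h.

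In the other lists most genes did not pass at a given time, except those for the branch point and the 3′ splice site at 24 h, where 7 of 13 passed. Over all genes 6.30%, 10.0% and 11.0% fell and 4.26%, 8.01% and 8.73% rose at 12, 24 and 72 h. Of 13 genes for the branch point and the 3′ splice site, 1, 6 and 3 fell at 12, 24 and 72 h and SUGP1 rose at 24 h (0.61), and the falls included the helicase DDX46 (-1.25 at 72 h), the SF3B subunit PHF5A (-0.94) and RBM17 (-0.74). Of 11 exon junction genes 2, 4 and 4 fell, with ALYREF, an export adaptor, at -1.19 at 72 h, RNPS1 at -1.14 and PNN, known as pinin, at -0.92. Of 12 tri-snRNP and B complex factors 2, 2 and 1 fell, the last near the 11.0% of all genes; PPIH, a cyclophilin that binds PRPF4, fell at all times (-0.62, -1.59 and -1.63), USP39 fell at 12 and 24 h and PQBP1 rose at 24 h (0.60). Of 10 helicases and U5 proteins 1, 2 and 3 fell, the last being TXNL4A (-0.72), EFTUD2 (-0.67) and DDX23 (-0.62).

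The 18 genes of the Prp19 complex and the catalytic steps gave 0, 1 and 2 falls, no more than about the 6.30%, 10.0% and 11.0% of all genes. These were BCAS2 (-0.76 at 72 h) and PLRG1 (-0.67), while SLU7, which acts in the second catalytic step, rose at all times (0.74, 0.78 and 0.70). For the count of 0 at 12 h limma gave 7 lower genes at an unadjusted p under 0.05, and the methods' analysis of variance called 0. Among 7 genes named SNRNP, SNRNP40 (-0.61, -0.80 and -0.73) and SNRNP35 (-0.60 at 72 h) fell. Of 31 other regulators 3, 8 and 7 fell and 0, 1 and 1 rose, with SYNCRIP at -0.88, -1.32 and -1.55, RBMX at -1.08 and -0.80 at 24 and 72 h and PTBP3 at -0.90 at 72 h; the rise was that of PSPC1. TARDBP, which encodes the RNA-binding protein TDP-43, read 11.81, 11.85 and 11.82 at 0 h, 11.24, 11.24 and 11.35 at 12 h, 10.90, 10.75 and 10.79 at 24 h, and 10.91, 10.97 and 10.95 at 72 h. Its treated arrays lay below the untreated ones at every time, with changes of -0.55 at 12 h, under 1.5-fold, -1.01 and -0.88 (adjusted p = 1.31e-05, 2.35e-08 and 7.02e-08 from limma).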

How the data were processed

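Messenger RNA of C2 cells was hybridised to 12 Affymetrix Canine Genome 2.0 arrays, 3 each at 0, 12, 24 and 72 h with 100 nM masitinib. Groups were taken from the time given for each sample, and replicate numbers from the sample titles. The authors deposited a log2 expression value for every probe set on every array, made in the Partek software with its gcRMA workflow (background correction, quantile normalization, median polish); Partek and RMA are also the tools in the submitters' processing notes. Quantile normalization forces the arrays to a common distribution and thereby hides a shift of most transcripts in 1 direction. The authors' own fold changes were not used.

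Of 43035 probe sets, 111 Affymetrix controls were set apart and 42924 tested, of which 29254 carry 1 gene symbol, 439 several and 13231 none in the platform annotation. Updating symbols through Entrez identifiers changed none of the 66. The 14 probe sets that name a splicing gene together with another gene were left out, and no gene was reached through them alone. limma 3.58.1 in R 4.3.3 (lmFit, then eBayes) was fitted with a coefficient for each time point; the steps were tested on simulated data. Tables and figures were made in Python 3.11.15 with pandas 2.3.3 and matplotlib 3.10.9. The median residual SD was 0.112 over all probe sets and 0.056 over those of the splicing genes.

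The genes and lists were chosen with earlier results of these data known. Genes named are, per family, up to 5 called genes with the largest change, called genes that moved against their family or between treated times, the gene with the smallest change at 72 h, genes with opposite probe sets, and in each other list the 3 called genes with the largest change at 72 h and TARDBP; others are named to complete counts, after their values were seen. Alternatives were the methods' analysis of variance with Storey q-values, Storey q-values on the limma p-values, fits of 2 time points only, other thresholds, leaving out dim probe sets, scaling by array medians, by cyclic loess or to poly-A controls, other rules for the probe set of a gene, updated symbols, a block for the replicate number, and fits with 1 array removed. Counting a gene by any called probe set was chosen after seeing the data.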

Additional observations from a re-analysis of the deposited data

Results flagged for a closer look

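The change between 12 and 24 h with masitinib passed a direct test (limma) for 9 splicing genes, so that their difference from 0 h was not the same at both times. On the log2 scale it was -1.12 for HNRNPA3, -0.74 for HNRNPA2B1, -0.71 for HNRNPM and -0.65 for HNRNPDL among the hnRNP genes. It was -1.06 for SNRPA1 and -0.59 for SNRPF among the SNRP genes, and -0.74 for LSM4, -0.62 for LSM5 and -0.61 for LSM3 among the LSM genes. On probe sets whose names mark no shared or cross-hybridising probes 3 of the 9 passed (HNRNPA3, SNRPA1 and LSM4), HNRNPM, LSM3 and LSM5 have none, and HNRNPA2B1, HNRNPDL and SNRPF did not pass, with 0.23, 0.097 and 0.096. With 3 arrays per time point, single arrays were not tested as outliers.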

How the results depend on the processing

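Counts of splicing genes that passed (9, 24 and 27 at 12, 24 and 72 h against 0 h, 9 from 12 to 24 h and 0 from 24 to 72 h) depended mostly on thresholds, scaling and the probe set. Above 2-fold they were 1, 10, 10 and 2, and at an adjusted p under 0.05 with no fold threshold 43, 50, 51, 35 and 27. Scaling to the poly-A controls gave 29, 52, 49, 21 and 2. Taking the probe set with the largest change gave 16 at 12 h, and any called probe set, an alternative chosen after seeing the data, 17; from 24 to 72 h both gave 1, as did cyclic loess. Of the 66 genes 53 have a probe set whose name marks no shared or cross-hybridising probes, and with these alone 14 passed at 24 h, 14 at 72 h and 3 from 12 to 24 h. Single values turned in sign with the probe set: SRSF5 at 24 and 72 h to -0.81 and -1.20 (largest change), HNRNPDL at 72 h to 0.0025 (mean of all) and 0.37 (unmarked), HNRNPA2B1 at 72 h to 0.21 (unmarked), and SNRPF to 0.057, 0.15 and 0.069 (unmarked) at 12, 24 and 72 h. Leaving out 1 array gave 9 to 11, 23 to 26, 26 to 27, 6 to 9 (6 without 12 h replicate 1) and 0 to 1 (1 without 24 h replicate 3 and without 72 h replicate 2). Deviations of same-numbered arrays from their time-point means correlated at -0.33 to 0.41 over 18 pairs. This range lay within that of differently numbered arrays (-0.46 to 0.46). With the replicate number as a block the counts were 9, 24, 27, 9 and 0, with 60 of 60 called values kept. The cause of these shifts was not tested.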
